A study of Homo sapiens with 24 samples.

Results

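The AP-1 and immediate early genes described here were chosen by name: FOS, FOSB, FOSL1, FOSL2, JUN, JUNB, JUND, ATF3, EGR1 and IER3, 10 of the 57820 genes listed in the deposited count files. Each name matched 1 gene and all 10 genes were counted in each of 24 libraries. RNA-seq had been performed on U2OS osteosarcoma cells, an established human line, in 8 groups with 3 biological replicates each. AID-DIvA U2OS cells carry the restriction enzyme AsiSI in an inducible form. WT and ID3-KO AID-DIvA cells were either untreated or given mocetinostat, an inhibitor of class I histone deacetylases, for 24 h and then fresh medium lacking it for a further 24 h (recovery). WT and ID3-KO cells labelled U2OS were either untreated or treated with mocetinostat and, as inferred from the labels and the methods, collected directly after 24 h. The sources used here give no dose and no induction of AsiSI for these libraries, and do not say whether the KO cells are a single clone. The library names of the U2OS groups also carry the word DivA, so how the lines differ is not clear from the labels. The cell line label and the recovery coincide and cannot be told apart.

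In the AID-DIvA groups, 12 libraries in all, the labels contradict themselves, since the entry for treatment states the opposite of the sample titles. The titles were followed, because the descriptions and the names of the count files say the same. Every direction given below for mocetinostat in AID-DIvA cells would turn around if the entry were right and the titles wrong, and the groups compared between KO and WT would exchange their names.

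AP-1 is a pair of proteins joined through leucine zippers: a JUN protein (JUN, JUNB, JUND) with another JUN protein, a FOS protein (FOS, FOSB, FOSL1, FOSL2) or an ATF protein such as ATF3. Immediate early genes are transcribed within minutes of a growth factor, stress or serum stimulus, through factors that are already present, and many of their mRNAs are short-lived. SRF with its partner ELK1, activated by MAP kinases, drives FOS and EGR1 through the serum response element, while histone acetylation is known to affect how strongly these genes are transcribed.

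Promoter sequences (from 250 bases before to 50 bases after the start, RefSeq, GRCh38.p14) were present for 8 of the 10 genes, ATF3 with 2 promoters. They were searched on both strands for the AP-1 site TGANTCA, the cAMP response element TGACGTCA, the EGR site GCGTGGGCG and the CArG box, the core of the serum response element. Promoters of EGR1 (chr5:138465229-138465528), FOS (chr14:75278578-75278877) and FOSB (chr19:45467746-45468045) are shown because the mRNA levels of these genes varied together between libraries. Those of FOSL2 (chr2:28392608-28392907) and JUND (chr19:18281573-18281872) are shown because they hold the other matches. All are 5′ to 3′ on the gene's strand, which is the minus strand for JUND and the plus strand for the others. Capitals mark the matches.
EGR1: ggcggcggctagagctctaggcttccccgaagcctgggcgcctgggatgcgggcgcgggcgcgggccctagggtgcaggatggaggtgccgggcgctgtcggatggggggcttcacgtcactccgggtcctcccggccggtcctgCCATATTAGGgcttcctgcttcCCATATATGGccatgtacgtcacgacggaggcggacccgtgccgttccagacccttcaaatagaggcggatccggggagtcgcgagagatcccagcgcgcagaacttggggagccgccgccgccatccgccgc
FOS: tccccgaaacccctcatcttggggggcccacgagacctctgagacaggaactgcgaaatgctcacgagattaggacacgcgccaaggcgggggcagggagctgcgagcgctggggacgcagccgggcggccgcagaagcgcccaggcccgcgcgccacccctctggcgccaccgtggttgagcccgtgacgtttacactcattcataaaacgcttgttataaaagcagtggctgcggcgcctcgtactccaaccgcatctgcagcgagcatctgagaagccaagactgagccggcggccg
FOSB: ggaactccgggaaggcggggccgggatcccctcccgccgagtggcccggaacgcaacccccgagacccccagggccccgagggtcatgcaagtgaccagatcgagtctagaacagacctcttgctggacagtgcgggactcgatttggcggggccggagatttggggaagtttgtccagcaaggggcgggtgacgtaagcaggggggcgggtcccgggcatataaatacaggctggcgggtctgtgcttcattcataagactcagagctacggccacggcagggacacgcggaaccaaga
FOSL2: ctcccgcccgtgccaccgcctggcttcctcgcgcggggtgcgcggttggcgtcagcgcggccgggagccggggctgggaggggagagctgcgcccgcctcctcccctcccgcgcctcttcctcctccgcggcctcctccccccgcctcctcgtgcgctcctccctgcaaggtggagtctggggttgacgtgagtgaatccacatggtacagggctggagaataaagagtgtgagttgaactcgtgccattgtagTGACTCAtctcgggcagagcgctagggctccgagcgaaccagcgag
JUND: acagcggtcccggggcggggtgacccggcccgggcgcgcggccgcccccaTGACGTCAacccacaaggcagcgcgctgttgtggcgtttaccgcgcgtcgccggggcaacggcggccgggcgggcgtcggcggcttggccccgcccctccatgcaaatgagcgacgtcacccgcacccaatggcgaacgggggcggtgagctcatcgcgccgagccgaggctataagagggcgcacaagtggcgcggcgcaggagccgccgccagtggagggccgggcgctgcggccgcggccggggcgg
EGR1 held both CArG boxes found, CCATATTAGG from -105 to -96 and CCATATATGG from -83 to -74, counting the start base as 0. FOSL2 held the AP-1 site TGACTCA at 4 to 10, and JUND held the cAMP response element at -200 to -193. Among all 35116 promoters of the same length, 7.71% held the AP-1 site, 1.85% the cAMP response element, 1.29% the CArG box and 0.795% the EGR site, which none of the 8 genes held. These matches are a description of the letters in this window only, and elements further upstream, of FOS or any other gene, were not searched.

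Total counts ran from 37878751 to 76906266 per library, so that each gene except FOSB rested on 831 to 33168 counts in a library, and FOSB on 58 to 2916. ID3 mRNA was still counted in KO cells, at group means of 30.6 to 64.8 CPM (counts scaled to the effective size of the library), against 50.4 to 118.8 CPM in WT cells, and was lower in KO than in WT libraries in each matched pair of groups. Mesenchymal COL1A1 and VIM were abundant (at least 824 and 433 CPM), RUNX2 was present at 11.8 to 47.9 CPM, and of the osteoblast markers SPP1 was at 15 to 61 CPM and ALPL at 0.618 to 6.95 CPM, while SP7, BGLAP and COL1A2 were at or near 0 (at most 0.114, 0.689 and 1.37 CPM). Of 8 counted markers of other cell types, EPCAM reached 10.4 CPM and the others at most 2 CPM. Their summed level was 6.3 to 8.11 CPM in untreated groups and 7.82 to 11.5 CPM after mocetinostat, and its part in the results was not tested. Replicate 1 of untreated WT U2OS cells stood apart: its counts differed from those of replicates 2 and 3 with a chi-square per gene of 92.4 and 82.0, against 2.62 to 24.5 for every other pair of replicates. Values of the 10 genes whose call changed without this library, and counts of treatment responses in gene lists that moved by over 1.5 times, are given with and without it.

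The 10 genes differed widely in level and in how far the groups lay apart. Per kilobase of exonic length, FOSL2 was the highest member of the FOS family in 7 of the 8 groups, and FOSB the lowest in all 8. The mean level in the highest group was 24.6 times that in the lowest for FOSB, 7.65 times for FOS, 5.03 times for FOSL1, 4.79 times for JUNB and 4.15 times for ATF3. It was 3.18 times for IER3, 2.39 times for FOSL2, 2.16 times for EGR1, 1.95 times for JUN and 1.60 times for JUND. Ordered by mean, neighbouring groups overlapped in 3 of 7 steps for FOSL1, in 4 for FOSB, FOSL2, ATF3 and IER3, in 5 for JUN and JUNB, in 6 for FOS and EGR1, and in all 7 for JUND. FOS was lowest in untreated KO U2OS cells and highest in treated WT U2OS cells, and only the step above the lowest group was free of overlap.

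**Figure D1:**
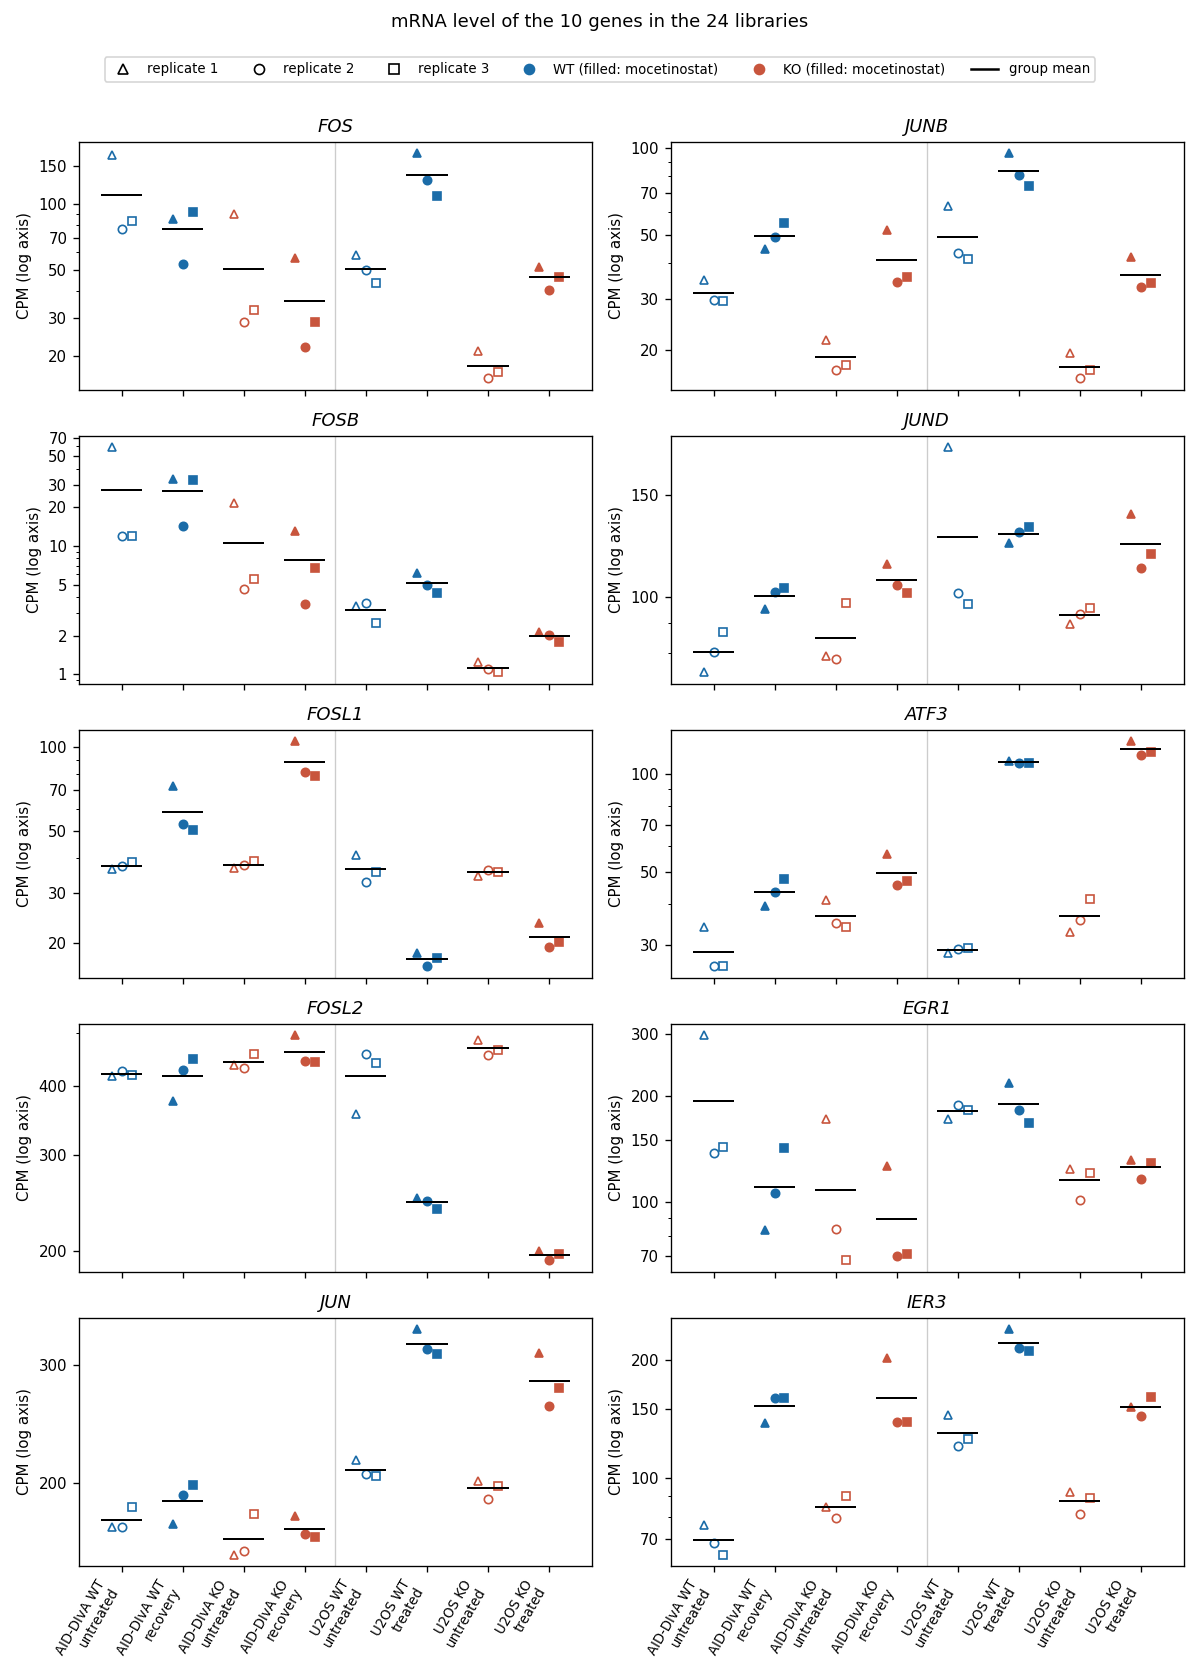
CPM (log axis) of the 10 genes in each of the 24 libraries, in the 8 groups of the study; symbols stand for replicates 1 to 3, open symbols for untreated cells, filled symbols for mocetinostat, and bars for group means. ATF3 lies at 108.1 CPM or more in all treated U2OS libraries and at 56.9 CPM or less elsewhere, while FOS, FOSB and EGR1 scatter widely between replicates of the AID-DIvA groups.

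Mocetinostat before recovery was compared with no treatment in U2OS cells, separately in WT and KO cells. The pattern was mixed within the FOS family: FOS and FOSB were higher and FOSL1 and FOSL2 lower after treatment, while JUN, JUNB, ATF3 and IER3 were higher. In WT cells 6 of the 10 genes rose and 2 fell at an adjusted p below 0.05 (edgeR quasi-likelihood test, Benjamini-Hochberg over all genes tested), against 26.0% and 22.9% of all 21797 genes tested. In KO cells 7 rose and 2 fell, against 35.8% and 34.0% of 21176 genes. A log2 difference above 1 was passed by 2 genes in WT cells and 3 in KO cells (13.6% and 14.6% of all genes), and below -1 by 1 gene in each (5.06% and 5.77%). Treated and untreated libraries did not overlap for 8 of the 10 genes in WT and 9 in KO cells, against 61.4% and 72.4% of all genes. In bulk RNA a change in the number of cells of one kind and a change in RNA per cell cannot be told apart. The p-values weigh the difference between groups against the spread between the 3 replicates of a group, estimated with information shared across genes.

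FOS (ENSG00000170345.5, hg19 chr14:75745477-75748933), the founding member of the family and a short-lived activator, stood at 58.1, 49.7 and 43.2 CPM in untreated WT cells and at 172.0, 129.6 and 109.5 CPM in treated WT cells. In KO cells it stood at 21.2, 15.7 and 16.9 CPM untreated and at 51.6, 40.4 and 46.3 CPM treated. The groups did not overlap in either genotype, and the increase was 2.74-fold in WT cells (log2 1.45 ± 0.18, SE, n = 3 per group, adjusted p = 0.00042) and 2.59-fold in KO cells (1.37 ± 0.11, adjusted p = 2.75e-07). FOSB (ENSG00000125740.9, hg19 chr19:45971253-45978437), its closest relative, was scarce: 3.39, 3.62 and 2.50 CPM untreated and 6.19, 5.0 and 4.33 CPM treated in WT cells, and 1.24, 1.10 and 1.03 against 2.14, 2.02 and 1.77 CPM in KO cells. It rose by 0.71 ± 0.19 (log2, adjusted p = 0.0154) in WT and by 0.82 ± 0.16 (adjusted p = 7.15e-05) in KO cells. Without replicate 1 of the treated WT group its WT value was 0.56 with an adjusted p of 0.067.

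FOSL1 (ENSG00000175592.4, hg19 chr11:65659520-65668044) and FOSL2 (ENSG00000075426.7, hg19 chr2:28615315-28640179) encode FOS proteins that lack the strong activation domain of FOS. FOSL1 was at 41.3, 33.1 and 35.9 CPM in untreated WT cells and at 18.5, 16.5 and 17.6 CPM in treated ones. In KO cells it was at 34.7, 36.4 and 35.9 CPM untreated and at 23.6, 19.3 and 20.1 CPM treated. Treated and untreated libraries were fully separated, and FOSL1 fell by 1.06 ± 0.10 (log2, adjusted p = 0.000118) in WT and by 0.76 ± 0.06 (adjusted p = 3.12e-10) in KO cells. FOSL2 was at 356.0, 456.9 and 441.6 CPM in untreated and 250.4, 247.3 and 239.0 CPM in treated WT cells. KO cells had 486.0, 455.7 and 466.0 CPM untreated and 199.8, 192.3 and 197.5 CPM treated. It fell by 0.76 ± 0.10 (adjusted p = 0.000611) in WT and by 1.25 ± 0.04 (adjusted p = 4.29e-17) in KO cells, the low untreated WT value being that of replicate 1.

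JUN (ENSG00000177606.5, hg19 chr1:59246465-59249785), the strongest activator of its family, was at 216.4, 206.0 and 204.4 CPM in untreated and 338.7, 316.8 and 311.1 CPM in treated WT cells. KO cells had 201.2, 189.3 and 198.0 CPM untreated and 312.5, 260.5 and 276.5 CPM treated. JUN was thus higher in every treated library, by 0.63 ± 0.07 (log2, adjusted p = 0.000257) in WT and 0.54 ± 0.05 (adjusted p = 1.15e-08) in KO cells. JUNB (ENSG00000171223.4, hg19 chr19:12902310-12904124), which can oppose JUN, rose from 63.1, 43.5 and 41.3 CPM to 96.2, 80.6 and 74.0 CPM in WT cells and from 19.4, 15.9 and 17.0 CPM to 41.9, 33.1 and 34.1 CPM in KO cells. The log2 difference was 0.77 ± 0.18 (adjusted p = 0.00866) and 1.07 ± 0.09 (adjusted p = 6.16e-09).
JUND (ENSG00000130522.4, hg19 chr19:18390563-18392432), the member made in most resting cells, was at 181.1, 101.5 and 97.2 CPM in untreated and 123.9, 129.6 and 132.0 CPM in treated WT cells, and these groups overlapped. The WT difference was 0.03 ± 0.23 (95% interval -0.50 to 0.56, adjusted p = 0.928). Without replicate 1 of the untreated WT group, the library that stood apart, it was 0.38 ± 0.04 (adjusted p = 7.9e-13). In KO cells JUND was at 89.5, 93.3 and 95.6 CPM untreated and 139.0, 112.0 and 118.7 CPM treated, 0.41 ± 0.06 higher (adjusted p = 5.74e-06). The KO value passed no longer when all 4 U2OS groups shared 1 fit (0.41 ± 0.18, adjusted p = 0.065).

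ATF3 (ENSG00000162772.12, hg19 chr1:212738676-212794119), a stress-induced partner of JUN proteins, had the largest difference of the 10 genes. It was at 28.3, 29.1 and 29.4 CPM in untreated and 109.2, 108.1 and 108.1 CPM in treated WT cells. KO cells had 33.0, 35.9 and 41.3 CPM untreated and 125.7, 114.1 and 116.7 CPM treated. This was 3.77-fold in WT cells (1.92 ± 0.07, adjusted p = 1.24e-06) and 3.25-fold in KO cells (1.70 ± 0.06, adjusted p = 3.62e-15). IER3 (ENSG00000137331.11, hg19 chr6:30710976-30712331), a stress-inducible regulator of survival that is no transcription factor, rose from 144.7, 121.2 and 125.6 CPM to 238.9, 213.7 and 210.7 CPM in WT and from 92.2, 81.2 and 89.1 CPM to 151.7, 143.7 and 161.1 CPM in KO cells. The difference was 0.77 ± 0.10 (adjusted p = 0.000431) and 0.80 ± 0.05 (adjusted p = 3.39e-12). EGR1 (ENSG00000120738.7, hg19 chr5:137801179-137805004), a zinc finger factor often induced together with FOS, was at 172.1, 188.1 and 182.1 CPM untreated and 218.1, 181.8 and 167.4 CPM treated in WT cells. The EGR1 difference was 0.08 ± 0.11 in WT (95% interval -0.17 to 0.32, adjusted p = 0.592) and 0.13 ± 0.07 in KO cells (-0.02 to 0.27, adjusted p = 0.105). EGR1 in KO cells passed under 6 of 14 other settings, at no more than 0.18.

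**Figure D2:**
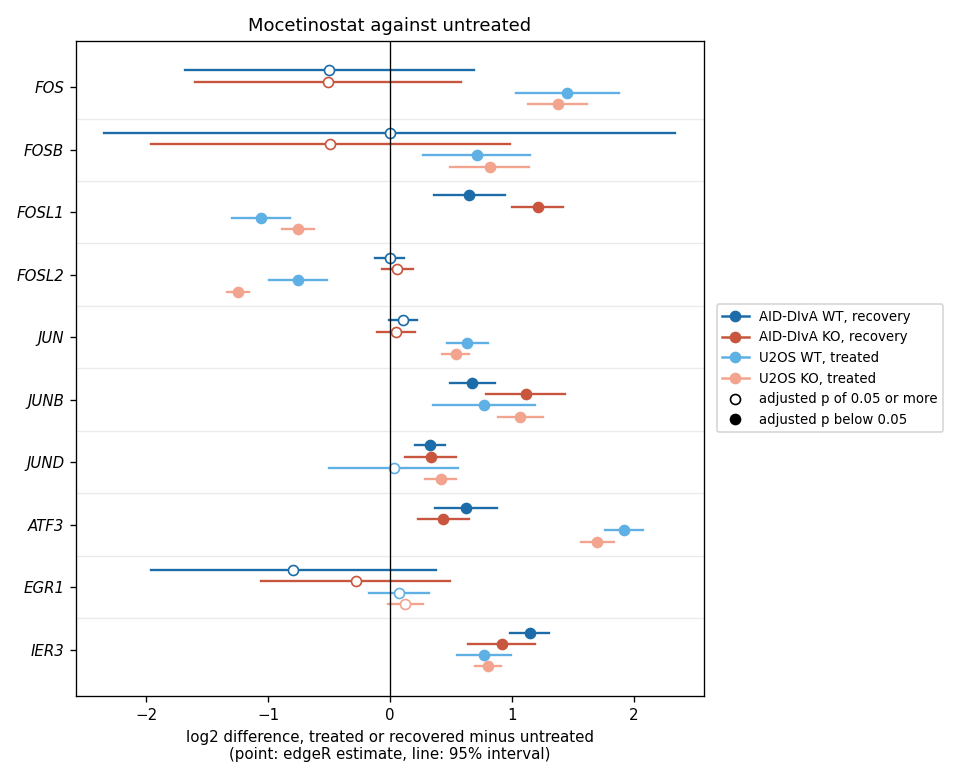
Log2 difference between mocetinostat and no treatment (horizontal axis) for the 10 genes in the 4 pairs of groups; points are edgeR estimates, lines 95% intervals, and filled points have an adjusted p below 0.05. FOS and ATF3 lie above 1 in both U2OS pairs, FOSL1 lies below 0 in U2OS cells and above 0 in recovered AID-DIvA cells, and the intervals of FOS, FOSB and EGR1 are wide in AID-DIvA cells.

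Recovered AID-DIvA cells were compared with untreated ones. No AID-DIvA library was collected before recovery, so these values do not show what remained of an earlier response. FOSL1, JUNB, JUND, ATF3 and IER3 were higher after recovery in both genotypes, and none of the 10 genes passed as lower. The 5 genes that rose stand against 23.9% of all 20289 genes tested in WT cells and 20.2% of 20362 genes in KO cells, where 23.0% and 19.9% of all genes fell. Above a log2 of 1 there were IER3 in WT cells (4.86% of all genes) and FOSL1 and JUNB in KO cells (4.9%). Recovered and untreated libraries did not overlap for 5 of the 10 genes in each genotype, against 56.1% of all genes in WT and 52.5% in KO cells.
FOSL1 was at 36.5, 37.5 and 38.9 CPM in untreated WT cells and at 72.3, 53.1 and 50.6 CPM after recovery. In KO cells it went from 36.9, 37.9 and 39.0 CPM to 104.5, 81.0 and 78.8 CPM. All recovered libraries were above all untreated ones, by 1.57-fold in WT (0.65 ± 0.125, adjusted p = 0.00322) and 2.31-fold in KO cells (1.21 ± 0.09, adjusted p = 9.33e-06). JUNB rose from 34.9, 29.7 and 29.6 CPM to 44.7, 49.1 and 55.2 CPM in WT cells (0.67 ± 0.08, adjusted p = 3.98e-05). KO cells went from 21.7, 17.0 and 17.6 CPM to 52.2, 34.4 and 35.9 CPM (1.11 ± 0.15, adjusted p = 0.000267). IER3 rose from 76.0, 68.7 and 64.1 CPM to 138.1, 160.1 and 160.0 CPM in WT cells (1.14 ± 0.07, adjusted p = 9.42e-08). It rose from 84.5, 79.4 and 90.0 CPM to 202.5, 139.3 and 139.0 CPM in KO cells (0.92 ± 0.12, adjusted p = 0.000332), replicate 1 being the highest.
ATF3 was at 34.1, 25.8 and 25.9 CPM untreated and 39.5, 43.6 and 47.9 CPM recovered in WT cells (0.62 ± 0.11, adjusted p = 0.00139). In KO cells it was at 41.2, 35.1 and 34.1 CPM untreated and 56.9, 45.8 and 47.1 CPM recovered (0.44 ± 0.09, adjusted p = 0.00458). JUND showed the smallest of these increases, 0.33 ± 0.06 in WT (adjusted p = 0.000359) and 0.33 ± 0.09 in KO cells (adjusted p = 0.0179). The KO value passed no longer without replicate 2 of the recovered KO group, without replicate 1 or 2 of the untreated KO group, or without replicate 1 of both groups (adjusted p = 0.054 to 0.081).
FOS was at 169.7, 77.1 and 83.4 CPM untreated and 85.7, 53.3 and 92.4 CPM recovered in WT cells. KO cells had 89.8, 28.8 and 32.6 CPM untreated and 56.7, 21.8 and 28.8 CPM recovered. These groups overlapped, with replicate 1 far above the others in 3 of the 4 groups. The difference of -0.50 ± 0.44 in WT and -0.51 ± 0.47 in KO cells did not pass (adjusted p = 0.416 and 0.426), and its 95% intervals, -1.68 to 0.68 and -1.60 to 0.58, include changes in either direction. FOSB, EGR1, FOSL2 and JUN did not pass either. For FOSL2 and JUN the intervals were narrow, -0.125 to 0.12 and -0.01 to 0.22 in WT cells and -0.07 to 0.19 and -0.11 to 0.21 in KO cells. For FOSB (-2.34 to 2.34 in WT and -1.96 to 0.98 in KO cells) and EGR1 (-1.96 to 0.37 and -1.06 to 0.49) they were not.

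Whether the response differed between U2OS cells before recovery and AID-DIvA cells after it was tested in 1 fit of all 24 libraries. In WT cells 6 genes passed, against 45.4% of all 23087 genes tested, and in KO cells 5, against 46.0%. FOS rose by 1.96 ± 0.60 more in U2OS than in AID-DIvA cells in WT (log2, adjusted p = 0.013) and by 1.87 ± 0.61 more in KO cells (adjusted p = 0.0192). In KO cells this value did not pass without replicate 2 of the recovered group (1.61, adjusted p = 0.052) or replicate 1 of the untreated group of AID-DIvA cells (1.16, adjusted p = 0.08). ATF3 rose by 1.29 ± 0.15 and 1.26 ± 0.14 more (adjusted p = 4.99e-08 and 6.8e-08) and JUN by 0.53 ± 0.10 and 0.48 ± 0.10 more (adjusted p = 8.03e-05 and 0.000246). FOSL1 had the opposite sign, -1.71 ± 0.16 and -1.98 ± 0.16 (adjusted p = 3.28e-09 and 2.23e-10), as it fell in U2OS cells and rose in AID-DIvA cells. FOSL2 was at -0.76 ± 0.11 and -1.31 ± 0.11 (adjusted p = 1.52e-06 and 1.24e-10). IER3 lay at the threshold in WT cells (-0.37 ± 0.15, adjusted p = 0.05) and did not pass under 18 of 31 other settings (-0.30 ± 0.165, adjusted p = 0.15, without replicate 1 of the untreated WT U2OS group), nor in KO cells (-0.12 ± 0.15, adjusted p = 0.553). For JUNB the difference was 0.10 ± 0.22 in WT (95% interval -0.37 to 0.56) and -0.05 ± 0.23 in KO cells (-0.53 to 0.42). Since the line and the recovery coincide, these values compare experiments.

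Per kilobase of exonic length the make-up of the families can be set out. FOSL2 supplied 62.0% ± 5.9 (SD, n = 3) of FOS family mRNA in untreated WT U2OS cells and 39.8% ± 4.1 after treatment, while FOS went from 16.6% ± 3.0 to 48.3% ± 5.0. In KO U2OS cells FOSL2 went from 72.7% ± 0.32 to 51.7% ± 2.3 and FOS from 6.12% ± 0.79 to 26.7% ± 1.6. In AID-DIvA KO cells FOSL1 went from 20.4% ± 2.6 untreated to 37.7% ± 0.88 after recovery, and FOS from 15% ± 8.4 to 8.65% ± 3.15. FOS therefore had the highest share of any FOS family member in treated WT U2OS cells, and FOSL2 in the other 7 groups. The summed FOS family level was 53.2 ± 3.4 CPM per kb in treated KO U2OS cells, below the 86.9 ± 11.1 of treated WT cells and the 94.0 ± 3.6 and 90.2 ± 2.6 of the untreated WT and KO cells. Summed JUN family levels were higher in treated than in untreated groups, at 211.8 ± 8.4 against 157.8 ± 33.8 CPM per kb in WT and 171.2 ± 18.1 against 118.3 ± 2.3 in KO U2OS cells. In untreated WT cells the JUN family sum was 136.3 and 140.2 CPM per kb in replicates 2 and 3 and 196.8 in replicate 1. The shares of JUNB in KO U2OS cells, 8.11% ± 0.77 untreated and 11.7% ± 0.35 treated, were below the 17.1% ± 0.49 and 21.7% ± 2.1 of WT cells. These shares follow from the levels given above and were not tested.

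**Figure D3:**
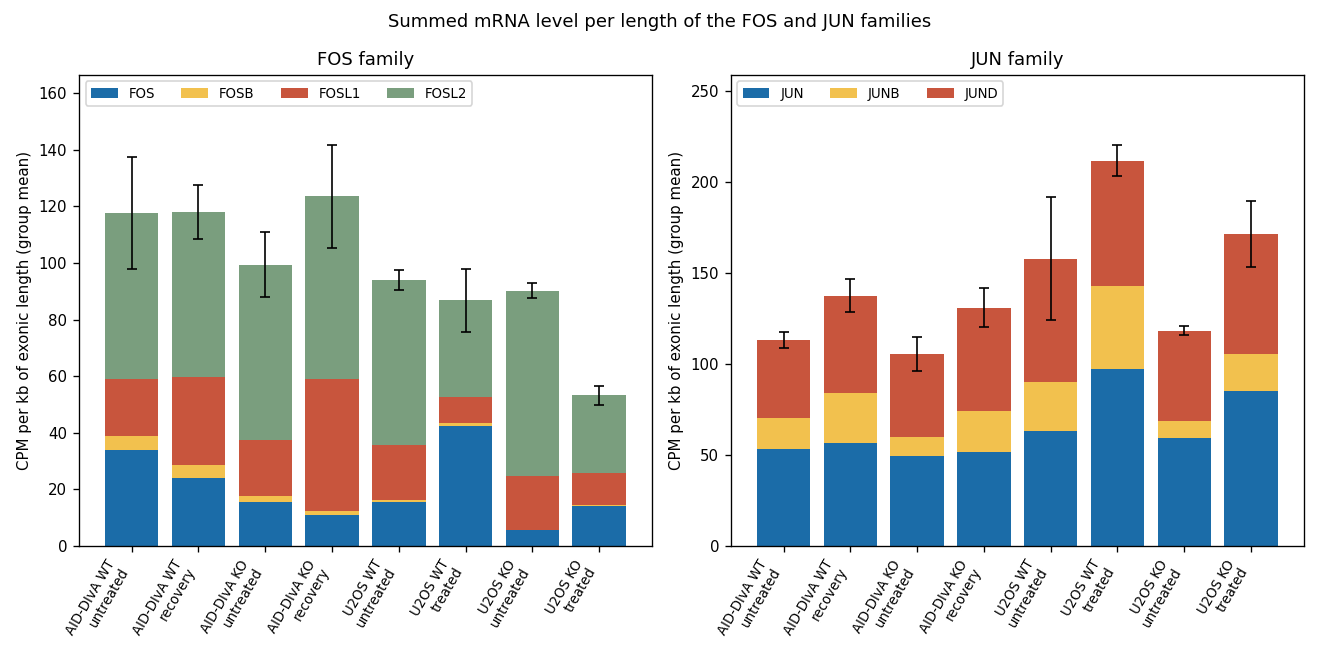
Mean CPM per kb of exonic length (vertical axis, from 0) of the FOS family and the JUN family in the 8 groups; stacked colours are the members and error bars the SD of the sum over 3 libraries. FOSL2 forms the tallest part of the FOS family bar except in treated WT U2OS cells, where FOS is at 42.3 and FOSL2 at 34.3 CPM per kb.

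KO and WT cells were compared within each treatment to see how loss of ID3 went along with these genes. FOS, FOSB and JUNB were the genes most clearly lower in KO than in WT U2OS cells. In untreated U2OS cells 5 of the 10 genes were lower and none higher at an adjusted p below 0.05, against 8.63% and 6.56% of all 20621 genes. In treated U2OS cells 7 were lower and 2 higher, against 19.0% of 21800 genes in each direction. In AID-DIvA cells 1 was lower and 2 higher untreated (18.1% and 18.6% of 20441 genes), and 2 were lower and 1 higher after recovery (11.1% and 12.6% of 20100 genes). KO and WT libraries did not overlap for 8 of the 10 genes in untreated U2OS cells, against 40.4% of all genes. In AID-DIvA cells this held for 4 untreated and 2 after recovery, against 47.0% and 40.2% of all genes. These comparisons use the libraries of the treatment comparisons again, and those values are not independent of each other.
FOS was lower in KO than in WT U2OS cells by a factor of 2.82 untreated (-1.49 ± 0.15, adjusted p = 0.000751) and 2.97 treated (-1.57 ± 0.22, adjusted p = 0.00604), with no overlap in the libraries given above. FOSB was lower by -1.5 ± 0.18 (adjusted p = 0.00185) and -1.39 ± 0.13 (adjusted p = 8.88e-10). JUNB was lower by -1.5 ± 0.17 (adjusted p = 0.00148) and -1.20 ± 0.13 (adjusted p = 0.000752). These 3 genes were the only ones of the 10 below a log2 of -1, which 2.84% and 2.18% of all genes passed. EGR1 was at 123.9, 101.1 and 121.0 CPM in untreated and 131.4, 115.8 and 128.5 CPM in treated KO cells, below all WT libraries. Its difference was -0.65 ± 0.10 (adjusted p = 0.00435) and -0.59 ± 0.10 (adjusted p = 0.00147), and the treated value lost its call without replicate 1 or 2 of the treated KO group (adjusted p = 0.056 and 0.073). IER3 was lower by -0.58 ± 0.09 (adjusted p = 0.00659) and -0.54 ± 0.05 (adjusted p = 6.94e-10).
The FOSL genes and ATF3 behaved otherwise. FOSL1 differed by -0.04 ± 0.09 in untreated cells (95% interval -0.26 to 0.17) and was 0.26 ± 0.07 higher in treated KO cells (adjusted p = 0.00302). FOSL2 was lower in treated KO cells by -0.32 ± 0.04 (adjusted p = 3.24e-07). ATF3 was 0.34 ± 0.09 higher in untreated KO cells, just outside the threshold (adjusted p = 0.0503), and 0.13 ± 0.04 higher in treated ones (adjusted p = 0.0192). The untreated ATF3 value passed under 7 of 14 other settings (DESeq2 among them, adjusted p = 0.019), and without replicate 1 of the untreated WT group it was 0.33 ± 0.07 (adjusted p = 0.00094). JUN differed by -0.19 ± 0.05 in treated cells, with overlapping libraries (adjusted p = 0.00586). With all 4 U2OS groups in 1 fit the treated values of FOSL1, JUN and ATF3 no longer passed (adjusted p = 0.073, 0.076 and 0.27). ATF3 also lost its call without any 1 library of the treated WT group or replicate 1 of the treated KO group (0.056 to 0.087), and JUN without replicate 1 of the treated WT group (0.058). JUND did not pass in either state, and the untreated JUND value moved from -0.45 ± 0.23 to -0.10 ± 0.04 (adjusted p = 0.036) without replicate 1 of the untreated WT group.

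**Figure D4:**
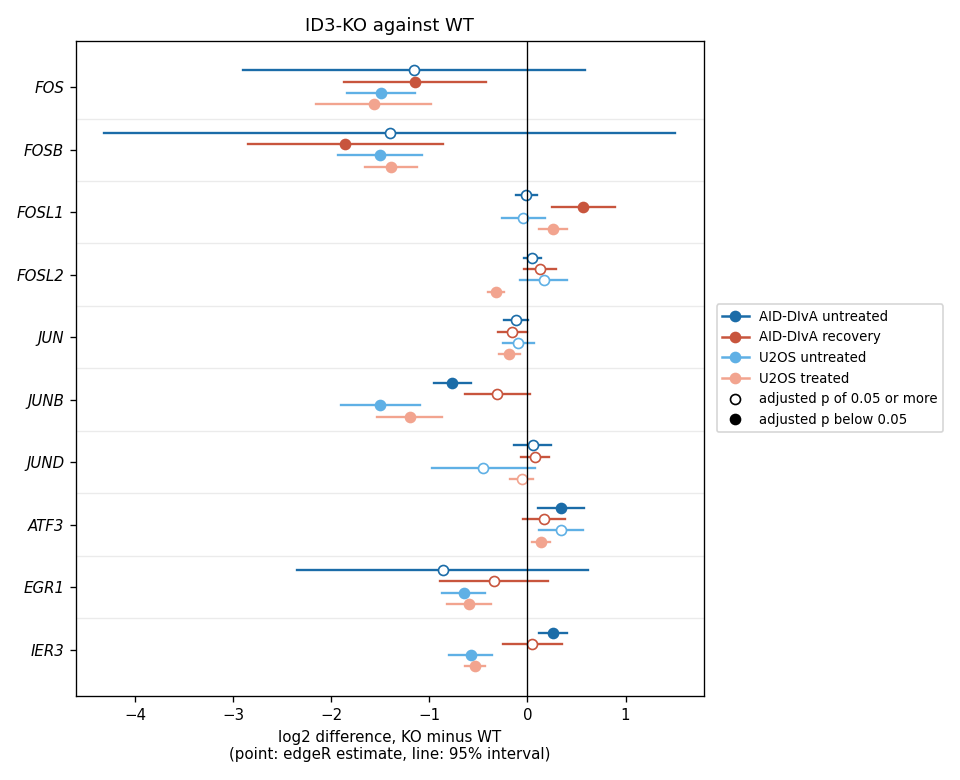
Log2 difference between KO and WT cells (horizontal axis) for the 10 genes in the 4 matched pairs of groups; points are edgeR estimates, lines 95% intervals, and filled points have an adjusted p below 0.05. FOS and FOSB lie below -1 in all 4 pairs, with intervals that reach past 0 in untreated AID-DIvA cells, and IER3 is below 0 in both U2OS pairs and above 0 in untreated AID-DIvA cells.

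In AID-DIvA cells the same genes were less clearly placed. FOS was 2.21-fold lower in KO cells after recovery (-1.14 ± 0.32, adjusted p = 0.0302) with overlapping libraries, and FOSB 3.62-fold lower (-1.86 ± 0.44, adjusted p = 0.0142), from 33.3, 14.4 and 33.0 CPM in WT to 13.1, 3.56 and 6.76 CPM in KO cells. Neither passed without replicate 3 of the recovered KO group or without replicate 1 of the recovered WT group, and FOS also not without replicate 3 of the WT group or replicate 2 of the KO group, nor FOSB without replicate 1 of the KO group (adjusted p = 0.055 to 0.35). With all 4 AID-DIvA groups in 1 fit the adjusted p was 0.17 for both genes, without the filter on low counts it was 0.29 for FOS and 0.21 for FOSB, and in DESeq2 FOS had an adjusted p of 0.085. FOSL1 was 1.48-fold higher in KO cells (0.57 ± 0.14, adjusted p = 0.0185), except without replicate 2 of the WT group (0.51, adjusted p = 0.072). JUNB did not pass (-0.31 ± 0.15, adjusted p = 0.169), but did without replicate 1 of the recovered KO group (-0.51 ± 0.09, adjusted p = 0.00081).
In untreated AID-DIvA cells FOS (-1.16 ± 0.64), FOSB (-1.40 ± 1.07) and EGR1 (-0.86 ± 0.54) did not pass (adjusted p = 0.252, 0.391 and 0.306). Without replicate 1 of both groups they stood at -1.40 ± 0.08, -1.25 ± 0.11 and -0.90 ± 0.085 and passed (adjusted p = 4e-07, 7.7e-06 and 1.4e-05), an alternative chosen after the high replicates had been seen. FOS, FOSB and EGR1 also passed with all libraries and the replicate number as a block (edgeR, adjusted p = 2.9e-14, 3.5e-14 and 1.5e-12). Their values were then -1.25 ± 0.07, -1.36 ± 0.08 and -0.88 ± 0.06. The numbers were not read as pairs, since samples sharing a number did not deviate together in every pair of groups. JUNB was lower in untreated KO cells by -0.77 ± 0.09 (adjusted p = 9.85e-06), with no overlap. IER3 and ATF3 were higher in untreated KO cells, by 0.26 ± 0.07 (adjusted p = 0.00542) and 0.34 ± 0.11 (adjusted p = 0.0275). The ATF3 call was lost in DESeq2 (adjusted p = 0.1) and in 5 of the 6 fits that left out 1 library, and that of IER3 with all 4 AID-DIvA groups in 1 fit (0.13) and without replicate 3 of the WT group (0.052).

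Whether mocetinostat acted differently in KO and WT cells was tested as an interaction. In U2OS cells FOSL2 alone passed (1 of 10, against 2.15% of 22647 genes), with a decrease that was larger in KO cells by -0.49 ± 0.11 (adjusted p = 0.0339). That call was lost with the replicate number as a block (adjusted p = 0.056) and without any single library of the treated WT, untreated KO or treated KO groups (adjusted p = 0.075 to 0.12). Over 19 other settings the FOSL2 value ran from -0.555 to -0.357. Replicate 1 of untreated WT cells, the library that stood apart, was low in FOSL2, at 356.0 CPM against 456.9 and 441.6 CPM. In AID-DIvA cells 0 of 10 passed in edgeR (1.21% of 21265 genes), where FOSL1 (0.57 ± 0.16) and JUNB (0.45 ± 0.19) had an unadjusted p of 0.0039 and 0.038, so that 2 of the 10 were below 0.05, against 11.8% of all genes. DESeq2 called 1, FOSL1 (0.58 ± 0.17, adjusted p = 0.039). FOSL1 also passed without replicate 1 of the recovered WT group (0.75, adjusted p = 0.0037). Leaving out replicate 1 of every group was an alternative chosen after seeing the data. In edgeR FOSL1 (0.62, adjusted p = 0.00044), IER3 (-0.55, adjusted p = 0.0025) and ATF3 (-0.40, adjusted p = 0.029) then passed in AID-DIvA cells. ATF3 then also passed in U2OS cells (-0.31, adjusted p = 0.0029). For FOS the interaction was -0.08 ± 0.23 in U2OS cells (95% interval -0.58 to 0.42) and 0.00 ± 0.78 in AID-DIvA cells (-1.79 to 1.78).

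In 3 of the AID-DIvA groups FOS, FOSB and EGR1 were high in replicate 1. In untreated WT cells FOSB was at 58.9, 12 and 11.9 CPM and EGR1 at 296.8, 137.8 and 143.4 CPM. In untreated KO cells FOSB was at 21.6, 4.59 and 5.55 CPM and EGR1 at 171.9, 83.6 and 68.1 CPM. In untreated WT cells replicate 1 exceeded the mean of replicates 2 and 3 by a factor of 4.93 for FOSB, 2.11 for FOS and 2.11 for EGR1. The factors were 4.27, 2.93 and 2.27 in untreated KO cells, and 2.53, 2.24 and 1.78 in recovered KO cells. In each of these groups the same 3 of the 10 genes reached a factor of 1.5, which 0.423%, 0.334% and 0.924% of all genes with at least 1 CPM did. In recovered WT cells none of the 10 did, and EGR1 was lower in replicate 1, at 82.9 CPM, than in replicates 2 and 3, at 106.2 and 142.0 CPM. FOSL2 had factors of 0.983 to 1.1 in the 3 groups with high replicates. In the U2OS groups only JUND, in untreated WT cells, reached 1.5, which 5.33% of all genes did in that group, and JUNB was at 1.49 there. The labels give no batch or harvest date for these libraries, and what sets replicate 1 apart was not tested.

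**Figure D5:**
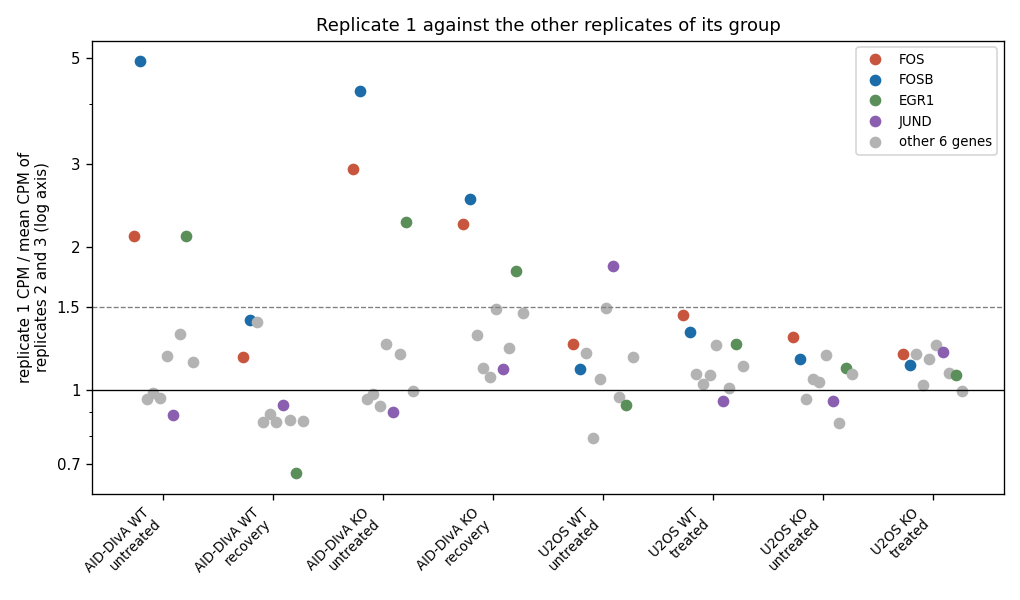
CPM of replicate 1 divided by the mean CPM of replicates 2 and 3 (log axis) for the 10 genes in each group; the solid line is equality and the dashed line a factor of 1.5. FOS, FOSB and EGR1 lie above 1.5 in 3 of the 4 AID-DIvA groups, and JUND in untreated WT U2OS cells.

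Across the 24 libraries, centred within each line label, FOSB followed FOS with a Pearson r of 0.870 and EGR1 with 0.793, and FOS followed EGR1 with 0.787. JUN followed ATF3 with 0.826 and JUNB followed IER3 with 0.821. FOSL2 ran opposite to ATF3 (-0.843) and to JUN (-0.811). The genes of all 15592 compared with the most similar course were, for FOS, IFT27 (0.908) and DNAJB1 (0.903), a heat shock cochaperone. For FOSB they were FOS and EGR1, for FOSL1 CTSA (0.951) and POLR3E (0.947), and for FOSL2 HCFC1 (0.980) and TTC31 (0.975). JUN had NT5M (0.964) and PIP5K1C (0.962), JUNB COL22A1 (0.971) and JUP (0.961), and JUND STX10 (0.955) and FBXL15 (0.947). ATF3 had KIAA0513 (0.983) and IQGAP2 (0.981), EGR1 CABIN1 (0.826) and CPT1C (0.801), and IER3 ATP13A2 (0.965) and HS1BP3 (0.961). The libraries share treatments and genotypes, so these values are descriptions.

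Other genes of the pathway were taken from lists of known function. Of 25 other immediate early genes, 19 rose and 2 fell in WT U2OS cells before recovery (25 tested) and 19 rose and 4 fell in KO cells (24 tested), with a median log2 of 0.80 and 0.67 against 0.0058 and 0.00086 over all genes. Without replicate 1 or without replicate 2 of the treated WT group, 12 rose in WT cells. After recovery in AID-DIvA cells (24 tested each) 9 rose and 4 fell in WT and 10 rose and 4 fell in KO cells. The medians were 0.05 and 0.17, against -0.0005 and -0.023 over all genes. Of all genes tested, 26.0% rose and 22.9% fell in WT and 35.8% and 34.0% in KO U2OS cells. In recovered cells these shares were 23.9% and 23.0% in WT and 20.2% and 19.9% in KO cells. NR4A3, an orphan nuclear receptor, went from 0.68 ± 0.23 to 6.41 ± 0.73 CPM (SD, n = 3) in WT U2OS cells (3.23 ± 0.23, SE) and by 3.65 ± 0.17 in KO cells. It was also higher in recovered AID-DIvA cells, by 2.34 ± 0.20 in WT and 1.57 ± 0.23 in KO cells. ARC rose by 2.09 ± 0.16 in WT and 1.71 ± 0.09 in KO U2OS cells, and EGR2, a relative of EGR1, by 1.32 ± 0.18 and 2.57 ± 0.21. DUSP1, a phosphatase that turns MAP kinases off, rose by 1.81 ± 0.11 and 1.36 ± 0.07 in WT and KO U2OS cells and by 1.54 ± 0.16 and 1.10 ± 0.09 in AID-DIvA cells. ZFP36L1 fell by 0.80 ± 0.08 and 1.42 ± 0.05 in U2OS cells, and CTGF fell by 1.03 ± 0.10 in recovered WT AID-DIvA cells.
Of 19 textbook AP-1 targets, 15 rose and 2 fell in each U2OS genotype (18 tested in WT, 19 in KO cells), and 13 and 14 of 18 rose with none falling in recovered WT and KO AID-DIvA cells. The medians were 0.57, 0.76, 0.92 and 0.63, against 0.0058, 0.00086, -0.0005 and -0.023 over all genes. The counts of these targets stand against the shares of all genes given for the other immediate early genes. IL8, a neutrophil chemokine, went from 2.14 ± 0.34 to 42.8 ± 2.8 CPM in WT and from 0.276 ± 0.043 to 41.6 ± 5.2 CPM in KO U2OS cells. In recovered AID-DIvA cells it was at 17.7 ± 6.6 and 18.4 ± 1.8 CPM, against 1.05 ± 0.17 and 0.611 ± 0.083 CPM untreated. The matrix metalloproteinases MMP10 and MMP13 rose by 4.10 ± 0.37 and 4.0 ± 0.27 in WT and by 4.45 ± 0.19 and 5.46 ± 0.17 in KO U2OS cells. Both started near 0, at untreated means of 0.145 and 0.305 CPM in WT and 0.211 and 0.166 CPM in KO cells. In recovered WT and KO cells MMP10 rose by 3.39 ± 0.32 and 2.99 ± 0.21, from untreated means of 0.234 and 0.374 CPM. MMP13, at means below 1 CPM, rose by 1.83 ± 0.33 and 2.085 ± 0.215. MMP3 rose by 3.80 ± 0.49 and 2.18 ± 0.11 in recovered WT and KO cells and by 1.84 ± 0.19 and 1.925 ± 0.14 in WT and KO U2OS cells. Its mean in untreated WT U2OS cells was 0.80 CPM. MMP9 rose by 2.22 ± 0.12 in recovered KO cells and by 0.47 ± 0.08 and 0.76 ± 0.08 in WT and KO U2OS cells. In recovered WT cells MMP9 did not pass (0.80 ± 0.25, edgeR, adjusted p = 0.053). LIF, a cytokine, went the other way in U2OS cells, where it fell by 2.05 ± 0.08 and 2.11 ± 0.05, and was 0.32 ± 0.05 and 0.27 ± 0.08 higher in recovered AID-DIvA cells.
Of 11 further bZIP partners (10 tested), 3 rose and 3 fell in WT U2OS cells, 3 rose and 5 fell in KO U2OS cells, and 4 rose and 3 fell in recovered cells of each genotype. Over all genes the shares that rose and fell were 26.0% and 22.9% in WT and 35.8% and 34.0% in KO U2OS cells, and 23.9% and 23.0% in recovered WT and 20.2% and 19.9% in recovered KO cells. The median log2 of the partners was -0.22 and -0.12 in WT and KO U2OS cells and 0.10 and -0.05 in recovered ones, against 0.0058, 0.00086, -0.0005 and -0.023 over all genes. Without replicate 1 of the untreated WT group, 6 partners fell in WT U2OS cells. MAFF, a small MAF protein, rose by 0.90 ± 0.08 and 1.5 ± 0.07 in WT and KO U2OS cells and by 1.05 ± 0.09 and 1.57 ± 0.11 in recovered ones. JDP2, a repressor of AP-1, fell by 1.22 ± 0.13 and 1.25 ± 0.05 in U2OS cells. BATF2 rose there by 2.49 ± 0.19 and 2.24 ± 0.18, from untreated means of 0.50 CPM in WT and 0.49 CPM in KO cells. Among 13 feedback inhibitors of MAP kinases (12 tested in U2OS, 11 in AID-DIvA cells), 6 rose and 1 fell in WT and 7 rose and 3 fell in KO U2OS cells, and 8 and 7 rose with 1 falling in recovered WT and KO cells. Their medians were 0.30, 0.21, 0.42 and 0.43, and the same shares and medians of all genes apply. DUSP5, which is specific for ERK, rose in all 4 comparisons, by 1.74 ± 0.10 and 1.81 ± 0.06 in WT and KO U2OS cells and by 1.51 ± 0.11 and 2.04 ± 0.08 in recovered WT and KO cells. SPRY4 rose by 1.17 ± 0.17 and 2.41 ± 0.09 in WT and KO U2OS cells and by 0.69 ± 0.15 and 1.55 ± 0.14 in recovered ones. DUSP10 and DUSP16 differed by 1.55 ± 0.08 and -1.07 ± 0.05 in KO U2OS cells and by 0.86 ± 0.09 and -0.79 ± 0.14 in WT U2OS cells.
Of 22 upstream regulators (SRF, its partners, CREB1 and MAP kinases), 8 rose and 4 fell in WT and 8 rose and 9 fell in KO U2OS cells, and none of them passed a log2 of 1 in either direction in any of the 4 treatment comparisons. After recovery 4 rose and 8 fell in WT and 3 rose and 6 fell in KO cells. The medians of the regulators were 0.08 and -0.07 in WT and KO U2OS cells and -0.08 and -0.17 in recovered ones, and their counts stand against the same shares of all genes as those of the bZIP partners. Without replicate 1 of the untreated WT group, 9 regulators fell in WT U2OS cells. Without replicate 2 of the recovered or replicate 1 of the untreated group, 2 rose in recovered WT and 3 fell in recovered KO AID-DIvA cells. Of the other immediate early genes, 14 of 25 were lower and none higher in treated KO than in treated WT U2OS cells, 7 were lower and 1 higher of 24 untreated, and in AID-DIvA cells 6 were lower and 2 higher untreated and 5 lower and 4 higher after recovery (24 tested each). Over all genes 19.0% were called in each direction in treated U2OS cells, 8.63% were lower and 6.56% higher in untreated ones, 18.1% and 18.6% in untreated AID-DIvA cells and 11.1% and 12.6% after recovery. The medians of these genes were -0.26 and -0.22 in treated and untreated U2OS cells and -0.09 and 0.02 in untreated and recovered AID-DIvA cells. Of the 22 upstream regulators, 6 were higher and 2 lower in untreated KO than in untreated WT AID-DIvA cells. After recovery 0 were higher and 2 lower. In U2OS cells 1 was higher and 2 lower untreated, and 3 were higher and 7 lower treated. Their medians were -0.005 and 0.006 in untreated and recovered AID-DIvA and 0.011 and -0.029 in untreated and treated U2OS cells. The same shares of all genes apply. Among these regulators, ELK1 and MAP2K2, chosen after their values were seen, were lower in KO cells throughout. ELK1 stood at 54.9 to 58.0 CPM in the 4 KO groups and at 107.7 to 129.1 CPM in the 4 WT groups on average, and MAP2K2, a kinase that activates ERK, at 76.4 to 90.2 against 145.9 to 181.6 CPM. ELK1 differed by -1.05 ± 0.05 and -0.96 ± 0.07 in untreated and recovered AID-DIvA cells and by -1.07 ± 0.07 and -1.15 ± 0.05 in untreated and treated U2OS cells, with adjusted p of 1.7e-10, 9.6e-06, 9.2e-05 and 5.8e-18.

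Of the 10 genes, 5 share bases with another annotated gene. Counted on the reverse strand alone, IER3 had 1.23 to 1.36 times and JUNB 1.11 to 1.17 times as many counts, against 0.954 to 1 times for the other 8 genes. IER3 overlaps an antisense gene over 394 bases, JUNB lies within the span of HOOK2, and FOSB within that of ERCC1, both on the opposite strand. FOSL2 shares 2225 bases with AC104695.3 on the opposite strand and 296 with RP11-373D23.2 on its own, and ATF3 shares 246 with RN7SL512P. With reverse-strand counts no call of IER3, JUNB or FOSB changed.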

How the data were processed

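RNA-seq libraries (TruSeq Stranded Total RNA, paired reads of 100 bases) had been aligned to hg19/GRCh37 with STAR, and the authors deposited raw read counts per gene from featureCounts, 1 file for each of 24 libraries. Versions are not given in the sources used here. Counts from either strand were used, with groups taken from the sample titles. CPM were computed with TMM factors over all libraries, and levels of different genes were compared per kb of exonic length. Each comparison was fitted with edgeR 4.0.16 (R 4.3.3, TMM, filterByExpr, robust quasi-likelihood test) on the groups it concerns, with Benjamini-Hochberg adjustment over all genes tested and a threshold of 0.05. Alternatives were DESeq2 1.42.0, its size factors, other filters on low counts, joint fits, the replicate number as a block, reverse-strand counts and leaving out libraries. The code was tested on simulated counts. Likeness between genes was Pearson's r of log2(CPM + 1), centred within the line label. From each list the text names genes among the 3 largest changes per direction past the threshold, a log2 of 1 and a mean of 1 CPM. The 10 genes and all lists were chosen with earlier results of these data known. FPKM and TPM columns of the files were not used.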

Additional observations from a re-analysis of the deposited data

Results flagged for a closer look

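Responses to mocetinostat that differed between U2OS cells before recovery and AID-DIvA cells after it, in a test of the difference itself, were those of FOS (log2 1.96 in WT and 1.87 in KO cells), FOSL1 (-1.71 and -1.98), FOSL2 (-0.76 and -1.31), JUN (0.53 and 0.48) and ATF3 (1.29 and 1.26). IER3 in WT cells, at -0.37 on the log2 scale, lay at the threshold (edgeR, adjusted p = 0.05) and did not pass under 18 of 31 other settings. Line and recovery coincide in these values and cannot be told apart. Between KO and WT U2OS cells the response of FOSL2 differed by -0.49 (edgeR, adjusted p = 0.0339), a call that was lost without any single library of the treated WT, untreated KO or treated KO groups (adjusted p = 0.075 to 0.12) and with the replicate number as a block (0.056). Over 19 other settings this difference ran from -0.555 to -0.357. No explanation of these differences was tested.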

How the results depend on the processing

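Of 120 values (10 genes in 12 comparisons) 59 passed, and 44 of these passed in every setting run. Among 2120 recomputed values, settings that kept all libraries lost 15 calls and gained 22, and leaving out libraries lost 55 and gained 26. IER3 in recovered KO against WT AID-DIvA cells turned from 0.05 to -0.21 (adjusted p = 0.00017 in edgeR) without replicate 1 of every group, an alternative chosen after seeing the data, and its values when leaving out libraries ran from -0.21 to 0.15. A value close to 0 that passed in neither setting changed its sign 76 times. The cause was not tested.

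Asking for a log2 difference beyond 1 as well left 1 and 2 genes in recovered WT and KO AID-DIvA cells, 3 and 4 in WT and KO U2OS cells, 3 in KO against WT U2OS cells in each state, 0 in untreated KO against WT AID-DIvA cells, 0 in the U2OS interaction and 3 in the difference between U2OS and AID-DIvA responses in WT cells. With all 4 AID-DIvA groups in 1 fit, 1 gene passed in recovered KO against WT cells. In the AID-DIvA interaction 1 passed in DESeq2 and 4 without a filter on low counts.

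Leaving out libraries, the number passing ran from 5 to 6 in recovered WT and 4 to 5 in recovered KO AID-DIvA cells, 7 to 9 in WT and 9 to 10 in KO U2OS cells, 1 to 6 and 1 to 4 in untreated and recovered KO against WT AID-DIvA cells, and 5 to 7 and 7 to 9 in untreated and treated KO against WT U2OS cells. It ran from 0 to 3 and 0 to 2 in the AID-DIvA and U2OS interactions, and from 5 to 6 in WT and 4 to 5 in KO cells for the difference between U2OS and AID-DIvA responses. The count of 1 in untreated AID-DIvA cells came without replicate 3 of the WT group, and that in recovered cells without replicate 3 of the KO group.

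Samples with the same replicate number did not deviate together in every pair of groups (correlations from -0.458 to 0.388), so the numbers were not read as pairs. With the replicate number as a block, 6 genes passed in untreated KO against WT AID-DIvA cells, where FOS (-1.25, adjusted p = 2.9e-14), FOSB (-1.36, adjusted p = 3.5e-14) and EGR1 (-0.88, adjusted p = 1.5e-12 in edgeR) were gained, and 0 in the U2OS interaction. FOS was gained in recovered KO AID-DIvA cells and EGR1 in KO U2OS cells, and no other call changed. Of 560 recomputed list counts, 29 moved by over 1.5 times. In WT U2OS cells these were the partners that fell (3, moved to 5 to 6), the upstream regulators that fell (4, moved to 7 to 9) and the other immediate early genes that rose (19, moved to 12) or fell (2, moved to 1). In recovered AID-DIvA cells they were the upstream regulators that rose in WT (4, moved to 2) or fell in KO cells (6, moved to 3 and to 10) and the 1 feedback inhibitor that fell in each genotype (0 in 4 settings in WT and 9 in KO cells). FOSB rested on the fewest counts.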
